A study of Mus musculus with 12 samples.

Results

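DNA methylation was examined at 10 CpG sites assigned to 9 genes in mouse oral tissue, with emphasis on 6 samples from mice that received an agent in addition to the carcinogen. The sites were Pkm, Ppp1r13l, Vamp3, Ctnnb1 and Tbc1d4, which were less methylated in DBP than in DMSO, and 2 CpGs of Ppp1r21 with C1qtnf9, Fgf3 and Efemp2, which were more methylated. They were chosen by the difference in methylation between the DBP and DMSO samples themselves, and they are 10 of the 31 CpGs past q < 0.01 and a difference of 25 percentage points among 53618 CpGs tested in that comparison (0.0578%). Across the series 4446809 CpGs had at least 1 read, and 274 of these lay within 500 bp of a site in addition to the 10. These directions rest on the deposited labels of the DMSO and DBP samples. Methylated calls per file equal, sample by sample, those the study lists for its control and DBP samples. The study's own list of these sites gives each the opposite sign. No measurement here shows which treatment a sample received. With the labels exchanged every direction, and every reading called nearer DBP or nearer DMSO, would turn. The question was whether the samples given an agent read like DBP or like DMSO at these positions.

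All 12 samples came from female B6C3F1/J mice that were 8 weeks old at the start, and there were 4 groups of 3 samples. Controls received DMSO, the vehicle, in the oral cavity. The DBP group received dibenzo[a,l]pyrene (DBP), a polycyclic aromatic hydrocarbon that forms bulky DNA adducts, at 24 nmol on 3 occasions per week for 5 weeks, and tissue was taken 48 h after the last dose. In the other 2 groups the labels give DBP+chemopreventive agent (here DBP+agent) and DBP+chemopreventive agent BR extract (here DBP+BR extract) beside the same DBP schedule. They name neither the agent nor what BR stands for, and they give no dose, route or timing for either, and no group that received an agent without DBP. Buccal mucosa, floor of the mouth and soft tissue of the hard palate were combined for DNA, so each value is an average over cell types, and a change in the share of a cell type cannot be told apart from a change of methylation within cells. Whether each sample was 1 mouse is not stated in the labels, so p-values of the exact permutation tests refer to the spread between these samples. The q-values of the logistic regressions hold counting error only.

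A CpG is a cytosine followed by guanine, and in mammals most methyl groups on DNA sit on such cytosines. Promoters rich in CpGs are usually unmethylated in normal tissue, whereas CpGs elsewhere are mostly methylated. Methylation is copied by a maintenance methyltransferase when DNA is replicated, and intermediate levels in a tissue arise where some cells or alleles carry the mark and others do not. In enhanced reduced representation bisulfite sequencing (ERRBS), DNA is cut by the enzyme MspI at CCGG, treated with bisulfite, which converts unmethylated cytosines, and sequenced. The methylation level of a CpG is the percent of its reads that kept the cytosine.

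The sequences below are the mm9 (NCBIM37) reference on the plus strand, with the measured CpG in capitals. They were picked to show the site where the 2 agent groups were set apart (Fgf3), a site where their means lay in the opposite order (Efemp2), the pair of adjacent Ppp1r21 CpGs, the site with the highest DBP mean (C1qtnf9), and a pair of sites within an MspI recognition sequence, CCGG, that were less methylated in DBP (Tbc1d4 and Pkm).
Fgf3 chr7:152014415-152014476: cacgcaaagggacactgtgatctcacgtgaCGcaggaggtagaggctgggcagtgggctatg
Efemp2 chr19:5475301-5475330: gtgtggagctgaccCGagcatgactctgaa
Ppp1r21 both CpGs chr17:88952484-88952547: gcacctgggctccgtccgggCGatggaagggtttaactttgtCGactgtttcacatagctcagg
C1qtnf9 chr14:61342768-61342829: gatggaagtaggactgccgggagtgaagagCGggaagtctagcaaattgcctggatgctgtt
Tbc1d4 chr14:102008330-102008359: tgctactttaaagcCGgctgctactccgcc
Pkm chr9:59504539-59504600: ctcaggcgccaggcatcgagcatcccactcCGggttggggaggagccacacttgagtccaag

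The annotation (GENCODE vM1) places the sites in varied settings. The Tbc1d4 CpG (chr14:102008344-102008345) lies in an untranslated exon, 64 bp from a transcription start, the Efemp2 CpG (chr19:5475315-5475316) in an exon annotated as untranslated, 10 bp from a start, and the Pkm CpG (chr9:59504569-59504570) in an intron, 154 bp from a start. The Ctnnb1 CpG (chr9:120843607-120843608) is intronic, 671 bp from a start, and the Ppp1r13l CpG (chr7:19955390-19955391) is in a coding exon. Both Ppp1r21 CpGs (chr17:88952504-88952505 and chr17:88952526-88952527) are 23040 and 23062 bp into that gene, which the annotation calls Klraq1, in an intron. The other sites are not inside the gene they were assigned to. The Vamp3 CpG (chr4:150503856-150503857) is in an intron of Camta1, 252 bp from a Camta1 start and -71784 bp from the Vamp3 start, where a negative distance is upstream. The C1qtnf9 CpG (chr14:61342798-61342799) falls within a Spata13 intron, -44173 bp from the start of C1qtnf9, and the Fgf3 CpG (chr7:152014445-152014446) overlaps no annotated gene and is -9543 bp from where Fgf3 starts. A CCGG held 4 of the 5 sites that were lower in DBP (Pkm, Vamp3, Ctnnb1 and Tbc1d4) and 0 of the 5 that were higher, against 30.3% of the 53618 CpGs tested in DBP versus DMSO.

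The libraries of the agent groups were deeper than the others. The files held 3287367 to 7774032 CpG calls per DMSO sample, 7515975 to 7974299 per DBP sample, 16908728 to 39615620 per DBP+agent sample and 17712547 to 78889043 per DBP+BR extract sample. Depth and the presence of an agent therefore cannot be told apart. At the 10 sites the DMSO and DBP samples had 10 to 55 reads with a median of 22, and the agent samples 0 to 172 with a median of 67.5. DBP+BR extract sample 1 stood apart. It had the most calls, yet at least 10 reads at only 73.1% of the 53618 CpGs, against at least 98.9% in each of the other 5 agent samples, and it lacked that depth at Pkm and Ppp1r13l, which leaves 8 sites for tests that include all 3 samples of this group. Mean methylation over the 38007 CpGs read in all 12 samples was 33% to 34.8% in every sample, and the median difference over all CpGs tested was 0 in each of the 5 comparisons. Single-sample levels rest on reads of both strands without scaling, with 95% Wilson intervals drawn in the plot of all values. The intervals and the limits given for a count of 0 hold counting error alone, as reads amplified by PCR and not tagged with molecular identifiers can be copies of 1 molecule.

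The values that chose the sites are given here as a description, with signs that follow the deposited labels and are opposite to those in the study's own list. Pooled over samples, DBP minus DMSO was -43.4 percentage points at Pkm, -43.3 at Ppp1r13l, -38.8 at Vamp3, -31.5 at Ctnnb1 and -31.3 at Tbc1d4. At the sites with more methylation in DBP it was 42.8 and 33.7 at Ppp1r21 CpG 1 and CpG 2, 39.2 at C1qtnf9, 37.6 at Fgf3 and 28.9 at Efemp2. Near the thresholds, the CpG inside with the largest q had a difference of 30.4 points at q = 0.00892 and the nearest outside -33.7 points at q = 0.0106. The smallest difference inside was -25.3 points and the nearest outside -24.9 points. The DMSO and DBP levels at the 10 sites are extreme by this choice, which holds for every comparison with them that follows.

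**Figure D1:**
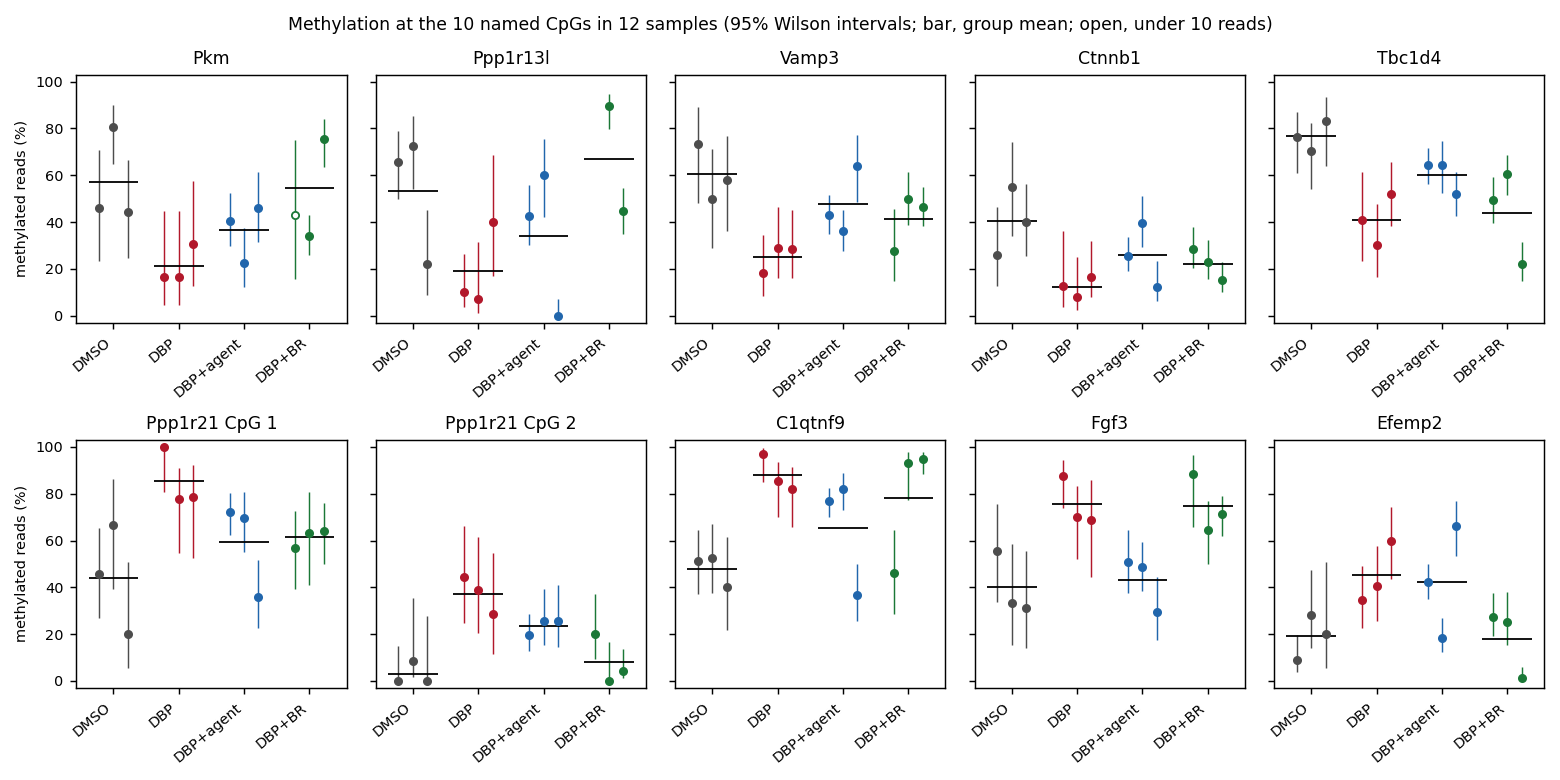
Methylation (percent of reads, y axis) at each of the 10 CpGs in the 12 samples, with 95% Wilson intervals, a bar at each group mean and an open point for the sample with under 10 reads (7 at Pkm). DMSO and DBP are set apart by the choice of sites, and samples of the agent groups spread between and beyond them, for example from 0% to 60% in DBP+agent at Ppp1r13l.

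Pkm encodes pyruvate kinase of the M type, which catalyses the last step of glycolysis. At Pkm the DMSO samples 1, 2 and 3 read 46.2%, 80.6% and 44.4% and the DBP samples 16.7%, 16.7% and 30.8%. Methylation in DBP+agent was 40.6%, 22.5% and 46.2%. In DBP+BR extract samples 2 and 3 it was 33.9% and 75.4%, and sample 1 had 7 reads and was not used. DBP+agent sample 2 lay inside the DBP range, sample 3 inside the DMSO range and sample 1 between them, while DBP+BR extract samples 2 and 3 lay above all DBP samples. The DBP+agent mean was 36.4% ± 12.4 (SD, n = 3), between DMSO (57.1% ± 20.4) and DBP (21.4% ± 8.14).

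Tbc1d4 encodes a Rab GTPase-activating protein that acts in insulin-stimulated glucose uptake. At Tbc1d4 the DMSO samples read 76.3%, 70.3% and 83.3% and the DBP samples 40.9%, 30% and 52.1%. DBP+agent gave 64.2%, 64.3% and 52%, and DBP+BR extract 49.5%, 60.5% and 22.1%. Every agent sample of either kind was below every DMSO sample, and both groups overlapped DBP. The difference from DMSO was -16.5 points ± 5.57 (SE) in DBP+agent and -32.6 ± 12 in DBP+BR extract, each with the smallest p that 3 against 3 samples allow (exact permutation test, two-sided, p = 0.1). DBP+BR extract sample 3, at 22.1% (95% interval 14.9% to 31.4%), was below all DBP samples.

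Ctnnb1 encodes beta-catenin, which links cadherins to the cytoskeleton and carries canonical Wnt signals to the nucleus. At Ctnnb1 the DMSO samples read 26.1%, 55% and 40% and the DBP samples 12.5%, 8% and 16.7%. The agent groups had 25.7%, 39.7% and 12.3% in DBP+agent and 28.3%, 22.9% and 15.4% in DBP+BR extract. Both overlapped DMSO as well as DBP, with 1 sample each, the third, inside the DBP range. In DBP+BR extract sample 1 nearly all reads were on the reverse strand (97 of 99), whereas the other samples were read mostly on the forward strand.

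Ppp1r13l encodes iASPP, an inhibitor of apoptosis driven by p53. At Ppp1r13l the DMSO samples read 65.8%, 72.4% and 22.2% and the DBP samples 10.3%, 7.14% and 40%. DBP+agent gave 42.6%, 60% and 0%, the last from 0 of 50 reads, which allows a level of up to 6%. DBP+BR extract samples 2 and 3 gave 89.4% and 44.6%, and sample 1 had no read. The DBP+agent samples ranged across the levels of both DMSO and DBP, and both DBP+BR extract samples were above all DBP samples, by 47.8 points ± 24.7 (SE) in the mean. With 2 samples against 3 the smallest p is 0.2, and it was reached (exact permutation test, two-sided, p = 0.2).

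Vamp3 encodes a vesicle SNARE of recycling endosomes, and the site itself lies in Camta1, a calmodulin-binding transcription activator. At Vamp3 the DMSO samples read 73.3%, 50% and 57.9% and the DBP samples 18.2%, 29% and 28.6%. DBP+agent gave 43.1%, 36% and 64.1%, all above DBP, and DBP+BR extract 27.6%, 50% and 46.6%, of which the first was within the DBP range. The difference from DBP was 22.4 points ± 9.16 (SE) in DBP+agent (exact permutation test, two-sided, p = 0.1) and 16.1 ± 7.82 in DBP+BR extract (exact permutation test, two-sided, p = 0.3).

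Fgf3 encodes a secreted fibroblast growth factor that acts mainly in embryonic development. At Fgf3 the DMSO samples read 55.6%, 33.3% and 31.2% and the DBP samples 87.5%, 70% and 68.8%. DBP+agent gave 51%, 48.8% and 29.3%, and DBP+BR extract 88.2%, 64.4% and 71.3%. DBP+agent samples 1 and 2 were within the DMSO range and sample 3 just below it, and all were below every DBP sample, while the DBP+BR extract samples were all above every DMSO and every DBP+agent sample. Group means were 40% ± 13.5 (SD, n = 3) in DMSO, 75.4% ± 10.5 in DBP, 43% ± 12 in DBP+agent and 74.7% ± 12.2 in DBP+BR extract. Of the 10 sites, this one alone had the samples of each agent group all nearer to 1 mean, DMSO for DBP+agent and DBP for DBP+BR extract.

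Efemp2 encodes fibulin-4, an extracellular matrix protein needed for elastic fibres. At Efemp2 the DMSO samples read 9.09%, 28% and 20% and the DBP samples 34.8%, 40.6% and 60%. DBP+agent gave 42.4%, 18.5% and 66.1%, and DBP+BR extract 27.3%, 25% and 1.14%. The group means were in the opposite order to Fgf3, with DBP+agent at 42.3% ± 23.8 (SD, n = 3) near DBP (45.1% ± 13.2) and DBP+BR extract at 17.8% ± 14.5 near DMSO (19% ± 9.49). DBP+agent sample 2 was nonetheless within the DMSO range, and all DBP+BR extract samples were below every DBP sample (difference -27.3 points ± 11.3, SE, exact permutation test, two-sided, p = 0.1).

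C1qtnf9 encodes a secreted C1q and TNF related protein made by fat tissue, and the site itself lies in Spata13. At C1qtnf9 the DMSO samples read 51.1%, 52.5% and 40% and the DBP samples 97.1%, 85.3% and 81.8%. DBP+agent gave 76.7%, 82.2% and 36.8%, and DBP+BR extract 46.2%, 92.9% and 94.8%. In both agent groups 2 samples were near DBP and the other near DMSO. The spread was wide, 65.3% ± 24.8 (SD, n = 3) in DBP+agent and 77.9% ± 27.5 in DBP+BR extract, against 6.84 in DMSO and 7.99 in DBP.

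Ppp1r21 encodes a regulatory subunit of a protein phosphatase that is found at early endosomes, and its 2 CpGs are 22 bp apart, so their values are not independent. At Ppp1r21 CpG 1 the DMSO samples read 45.5%, 66.7% and 20%, the DBP samples 100%, 77.8% and 78.6%, DBP+agent 72.2%, 69.6% and 35.9%, and DBP+BR extract 56.7%, 63.2% and 64%. Every agent sample was below every DBP sample there. DBP+agent samples 1 and 2 were between the DMSO and DBP ranges and nearer the DBP mean, and the other 4 agent samples were within the DMSO range, with differences from DBP of -26.2 points ± 13.8 (SE) in DBP+agent and -24.2 ± 7.64 in DBP+BR extract (exact permutation tests, two-sided, p = 0.1 for each).

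At Ppp1r21 CpG 2 the DMSO samples read 0%, 8.33% and 0%, the DBP samples 44.4%, 38.9% and 28.6%, DBP+agent 19.6%, 25.5% and 25.6%, and DBP+BR extract 20%, 0% and 4.08%. The 0% of DMSO samples 1 and 3 came from 22 and 10 reads, which allow up to 13.6% and 30%, and that of DBP+BR extract sample 2 from 19 reads, which allows up to 15.8%. The DBP+agent samples were all between the DMSO and the DBP samples without overlap on either side, 20.8 points ± 3.43 (SE) above DMSO and -13.7 ± 5.07 from DBP (exact permutation tests, two-sided, p = 0.1 for each). DBP+BR extract overlapped DMSO and was below all DBP samples, at -29.3 points ± 7.67 (exact permutation test, two-sided, p = 0.1). In all, 50 exact tests of single sites were made over the 5 comparisons.

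To set the sites on 1 scale, each sample was placed between the DMSO mean (0%) and the DBP mean (100%) of its site. The median of the 10 site means was 49% in DBP+agent, from 8.47% at Fgf3 to 89.3% at Efemp2, and 47.9% in DBP+BR extract, from -39.4% at Ppp1r13l to 97.9% at Fgf3. Of 30 readings in DBP+agent 14 were nearer the DBP mean (46.7%), and of 28 in DBP+BR extract 11 were (39.3%). Readings of both groups were thus divided between the DMSO and the DBP side. Both measures use DMSO and DBP means that the choice of sites set far apart. A position midway can arise from that choice alone, and this cannot be told apart from a partial shift.

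**Figure D2:**
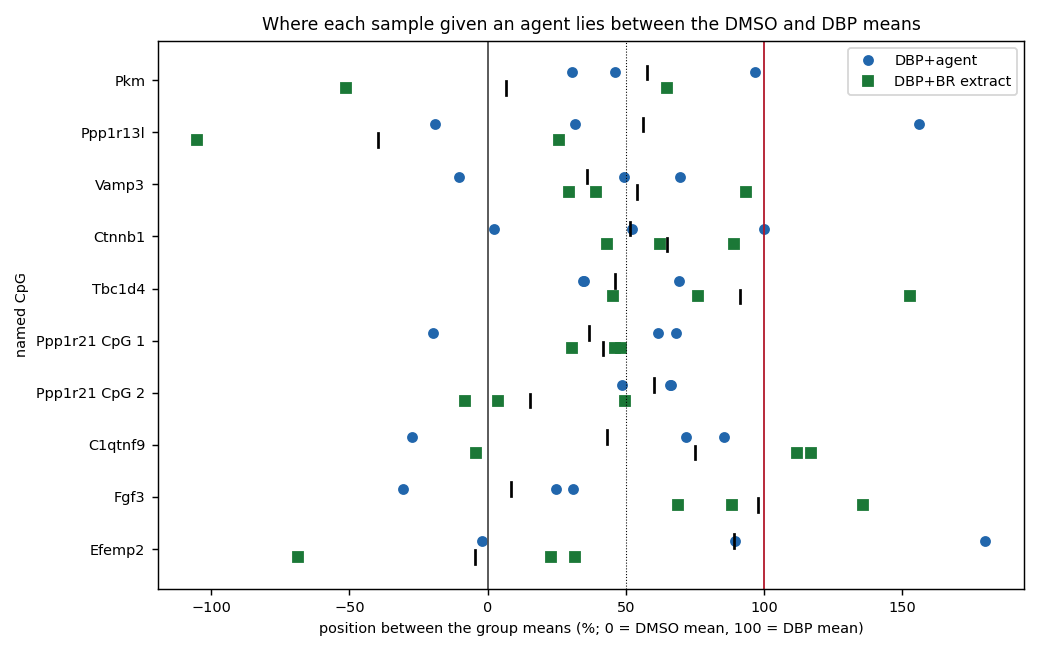
Position of each sample of the agent groups between the DMSO mean (0%) and the DBP mean (100%) at each CpG, with a short bar at the group's mean and a dotted line midway. At Fgf3 the DBP+agent samples (circles) lie from -30.5% to 31% and the DBP+BR extract samples (squares) from 69% to 136%, and at Efemp2 the means lie in the opposite order, at 89.3% and -4.7%.

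Sites lower and sites higher in DBP were both divided. In DBP+agent 6 of 15 readings at the sites lower in DBP and 8 of 15 at the sites higher in DBP were nearer the DBP mean, and in DBP+BR extract 6 of 13 and 5 of 15. DBP+agent had no site where all samples were nearer DBP and 1 where all were nearer DMSO, Fgf3. DBP+BR extract had 1 of the former, Fgf3, and 4 of the latter, namely Ppp1r13l on 2 samples, both Ppp1r21 CpGs and Efemp2. By sample, 4, 5 and 5 of 10 sites were nearer DBP in DBP+agent samples 1, 2 and 3. In DBP+BR extract these were 3 of 8, 4 of 10 and 4 of 10, so the counts were alike across samples. The other 21 CpGs past the same thresholds gave 39 of 63 readings (61.9%) nearer DBP in DBP+agent and 29 of 53 (54.7%) in DBP+BR extract. These shares were not tested against those of the 10 sites.

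A fit over all CpGs was made for each comparison, by logistic regression of read counts with a call at q < 0.01 and over 25 points. Against DMSO, 2 of 10 sites were called in DBP+agent (0.94% of all 63221 CpGs tested, and 2.31% of those with a mean of 10% to 90%). Both were lower, as were 0.459% of all CpGs, namely Pkm (-26.1 points pooled, q = 0.000202) and Ppp1r13l (-29.4 points, q = 5.39e-06). Both calls ended when DMSO sample 2 was left out (-8.32 and -22.1 points), Pkm also without DBP+agent sample 2 (-20.7), and Ppp1r13l without DBP+agent sample 3 (-6.79) or DMSO sample 1 (-23.1). Efemp2 passed 25 points without DBP+agent sample 2 (35.3) or DMSO sample 2 (29.2), Ppp1r21 CpG 1 without DBP+agent sample 3 (27) or DMSO sample 2 (25.6), and C1qtnf9 without DBP+agent sample 3 (29.6). At the 2 called sites the groups overlapped. The groups did not overlap at 2 of 10 sites, Tbc1d4 and Ppp1r21 CpG 2 (6.32% of all CpGs and 10.2% of those of intermediate mean).

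In DBP+BR extract against DMSO 3 of 8 sites were called (1.22% of 42861 CpGs and 2.97% of those of intermediate mean). Tbc1d4 differed by -27.4 points (q = 7.96e-11, with 0.768% of all CpGs called lower), and C1qtnf9 and Fgf3 were higher by 39.7 points (q = 9.78e-20) and 29.7 points (q = 6.95e-07), with 0.448% of all CpGs called higher. C1qtnf9 kept its call without any single sample, with differences from 27.7 to 45.8 points. Tbc1d4 lost it without DBP+BR extract sample 3 (-16.4) or DMSO sample 3 (-24.8), and Fgf3 without DMSO sample 3 (24.6). Ctnnb1 was called without DMSO sample 1 (-25.7) and Ppp1r21 CpG 1 without DMSO sample 2 (25.3). The groups did not overlap at 2 sites, Tbc1d4 and Fgf3 (6.57% of all CpGs and 10.9% of those of intermediate mean).

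Against DBP, 1 of 10 sites was called in DBP+agent (0.754% of 127381 CpGs, 2.06% of those of intermediate mean, and 0.387% called lower). This was Fgf3, at -34.2 points (q = 6.14e-09), and it was called without any single sample (-38.8 to -26 points). Ppp1r13l was called in addition without DBP+agent sample 3 (34.3), Vamp3 without DBP+agent sample 2 (26.5), C1qtnf9 without DBP+agent sample 1 (-25.7), and Ppp1r21 CpG 1 without DBP+agent sample 1 (-33.8) or 2 (-26.8) or DBP sample 2 (-28.6) or 3 (-26.8). The groups did not overlap at 4 of 10 sites (5.49% of all and 9.98% of intermediate CpGs), Vamp3, Fgf3 and both Ppp1r21 CpGs. In DBP+BR extract 2 of 8 were called (0.992% of 104443 CpGs and 2.72% of those of intermediate mean), both lower, as were 0.671% of all CpGs. Ppp1r21 CpG 2, at -31.3 points (q = 7.69e-09), was called without any single sample (-35.1 to -27.9). Efemp2, at -28.9 points (q = 5.77e-13), was not called without DBP+BR extract sample 3 (-18.2) or DBP sample 3 (-21.8). Ppp1r21 CpG 1 was called without DBP+BR extract sample 3 (-25.4), DBP sample 2 (-27.7) or DBP sample 3 (-26.6). Without overlap were 5 sites (5.69% of all and 10.8% of intermediate CpGs), Pkm and Ppp1r13l on 2 samples, both Ppp1r21 CpGs and Efemp2. Each agent group was compared with the same DMSO and DBP samples, so these comparisons are not independent of each other, and shares of called sites against DMSO and DBP partly follow from the choice of sites.

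DBP+BR extract against DBP+agent is the comparison that used no sample of the choice. Here 1 of 8 sites was called, Fgf3, where DBP+BR extract was higher by 26.7 points pooled (q = 8.2e-09), against 1.6% of 205096 CpGs, 4.09% of those of intermediate mean and 0.604% called higher. The groups did not overlap at Fgf3 alone, against 5.45% of all CpGs and 10.1% of those of intermediate mean, and the difference of means was 31.6 points ± 9.89 (SE, exact permutation test, two-sided, p = 0.1). It was 24.9 points without DBP+BR extract sample 3 and 20.9 without DBP+agent sample 3, under the limit of 25 in each. At Efemp2 the pooled difference was -24.4 points (q = 1.83e-12), just under that limit, and it passed the limit without DBP+agent sample 2 (-35.3) or DBP+BR extract sample 1 (-29.5) or 2 (-28.4). Ppp1r21 CpG 2 differed by -16.6 points (q = 6.6e-05), C1qtnf9 by 19.8 (q = 5.46e-08) and Tbc1d4 by -10.7 (q = 0.00596), all below 25 points. C1qtnf9 passed 25 points without DBP+BR extract sample 1 (25.2), DBP+agent sample 1 (26.5) or DBP+agent sample 2 (25.3), and Tbc1d4 without DBP+BR extract sample 2 (-25.1). At Vamp3, Ctnnb1 and Ppp1r21 CpG 1 the means differed by -6.31 points ± 11 (SE), -3.72 ± 8.76 and 2.05 ± 11.9, which leaves room for differences of either sign.

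**Figure D3:**
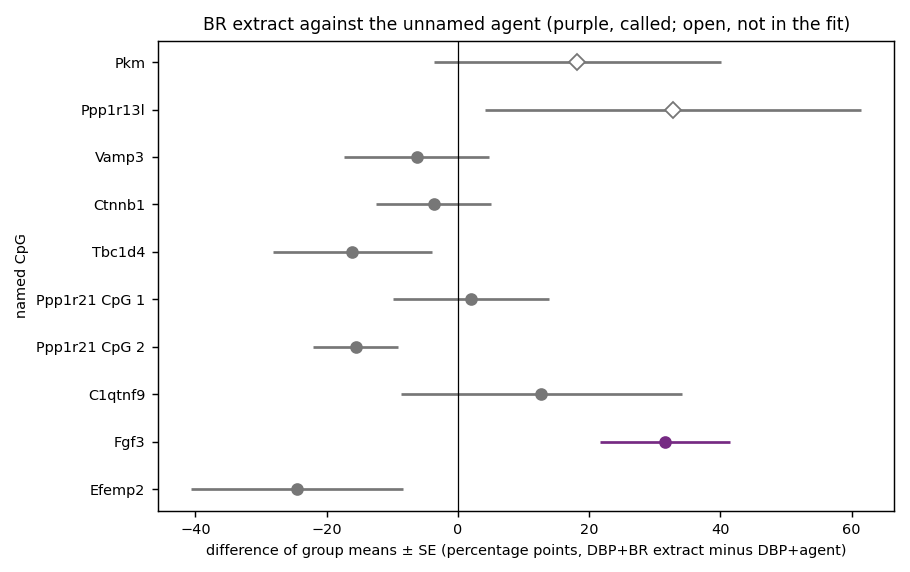
Difference of the group means (DBP+BR extract minus DBP+agent, percentage points, with SE) at each CpG. Fgf3, at 31.6 points, is the site called in the fit (purple), and open diamonds mark Pkm and Ppp1r13l, which rest on 2 DBP+BR extract samples and were not in the fit.

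The q-values depend on how the spread between samples enters. The logistic model holds counting error only and the reads of shallow samples were scaled up, by as much as 2.93 times in DMSO. Without scaling the same numbers of sites were called, beside 0.598%, 0.898%, 0.416%, 0.702% and 1.44% of all CpGs in the order above, with larger q, such as 3e-05 for Fgf3 between the agent groups. A negative binomial model (edgeR), which estimates the spread between samples, gave 0 sites at q < 0.01 in each of the 5 comparisons, where it called 0.00158%, 0%, 0.00236%, 0% and 0% of all CpGs. At an unadjusted p under 0.05 it gave 1, 3, 1, 2 and 0 sites, beside 5.32%, 5.82%, 5.23%, 5.81% and 6.71% of all CpGs. With a limit of 10 points in place of 25 the logistic model called 6 of 10, 4 of 8, 6 of 10, 5 of 8 and 5 of 8 sites, beside 7.08%, 11.1%, 5.43%, 8.61% and 11.3% of all CpGs. The share among CpGs of intermediate mean, which was the larger share at 25 points, was not taken at 10 points. For Fgf3 between the agent groups the edgeR p was 0.061, and for Efemp2 0.0581.

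Samples of the same agent group differed from each other by more than their Wilson intervals at many of these sites. The intervals count each read as 1 molecule, so with PCR copies they are too narrow, and a difference beyond counting error was not tested. The lowest and highest sample had separate Wilson intervals at 6 of 10 sites in DBP+agent and 5 of 10 in DBP+BR extract, against 1 in DMSO and 0 in DBP. Among all CpGs with a mean of 10% to 90% the same held for 41.2%, 41.4%, 8.4% and 6.67% in the same order of groups. Depth moved with this count, since deeper libraries have narrower intervals. The median SD of such CpGs was 13.1 points in DBP+agent and 12.6 in DBP+BR extract, against 9.9 in DMSO and 9.79 in DBP. Each group had its own set of such CpGs, those with at least 10 reads in its 3 samples. These were 141192 in DBP+agent, 99049 in DBP+BR extract, 26957 in DMSO and 49114 in DBP. The shares and SDs are thus not of the same CpGs, and what the unlike sets contribute was not tested.

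Neighbouring CpGs showed whether a site stood alone. Of the 274 CpGs within 500 bp, 15 had at least 10 reads in all 12 samples. Beside Pkm, the 4 CpGs 14 to 37 bp upstream were at 0% in every sample that had 10 reads, except for 2.38% in 1 DBP+agent sample at -37 bp. The CpGs 25 and 44 bp from the Ctnnb1 site had group means from 0% to 3.04%, and those at -44 and -40 bp from Tbc1d4 from 0% to 4.98%. Close by, these 3 sites were thus intermediate CpGs next to unmethylated ones, in all 4 groups. CpGs further off were not all unmethylated. At -269 bp from Pkm means were 15.9% in DMSO, 37.3% in DBP, 34.9% in DBP+agent and 30.6% in DBP+BR extract (2 samples). DBP+agent was above DMSO there (20.9 points pooled, q = 0.00138, not called) and below it at the Pkm site. In DBP+agent and DBP+BR extract, means were 70.2% and 69.6% at -204 bp from Ctnnb1. At -214 bp from Tbc1d4 they were 51.8% and 52.5% (2 samples each).

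The other sites had intermediate CpGs close by. At -8 bp from Ppp1r13l the means were 33.7% in DMSO, 37.4% in DBP, 21.5% in DBP+agent and 44.6% in DBP+BR extract (2 samples). At 17 bp they were 7.02%, 12.8%, 13.5% and 49.5%. The DBP mean was thus not below DMSO at these CpGs, but it was at -14 bp (21.5% on 2 samples, against 50.2%) and at 24 bp (8.18% against 29.8%). At Fgf3 the CpG at -5 bp had means of 28.2% ± 13.5 (SD, n = 3) in DMSO, 45% ± 18 in DBP, 27.7% ± 18 in DBP+agent and 36.9% ± 10.5 in DBP+BR extract, with more overlap than at the site. Between the agent groups it differed by 10.3 points pooled (q = 0.039) and was not called. The CpGs at -28 and -36 bp were not called either, at 2.35 points (q = 0.902) and -6.29 points (q = 0.254). The CpG at -13 bp from C1qtnf9 had means of 58.1%, 73.6%, 67.3% and 54.9% in DMSO, DBP, DBP+agent and DBP+BR extract. At Ppp1r21 the CpG at -4 bp from CpG 1 had 78%, 90.4%, 75.8% and 73.6%, and at Efemp2 the CpG at -45 bp had 55.1%, 64.9%, 58.5% and 46.8%, the DMSO means at both resting on 2 samples. DBP+BR extract had the lowest mean at each of these 3 neighbours, with SDs of 23.8, 11.4 and 15.9 points, and its samples overlapped those of every other group.

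Neighbours were called in 1 of the 5 comparisons. In DBP+agent against DBP these were 2 of 56 tested, both higher in DBP+agent, beside the 0.754% of all and 2.06% of intermediate CpGs called there. The CpG 21 bp from the Vamp3 site had means of 28% ± 8.51 (SD, n = 3) in DBP and 64.2% ± 20.7 in DBP+agent (29.9 points pooled, q = 3e-08), beside 50.5% ± 13.3 in DMSO and 33% ± 12.9 in DBP+BR extract. The CpG 375 bp from the Ppp1r13l site had 31.5% ± 11.8 and 65.6% ± 4.43 (32.7 points, q = 1.52e-07), beside 54.3% ± 19.8 and 53.3% ± 28.4. In the other 4 comparisons 0 of 42, 14, 23 and 39 tested neighbours were called, and by edgeR none of the neighbours in any of the 5 reached q < 0.01. The counts of 56, 23 and 39 hold 1 CpG near both Ppp1r21 sites that was counted with each of them.

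**Figure D4:**
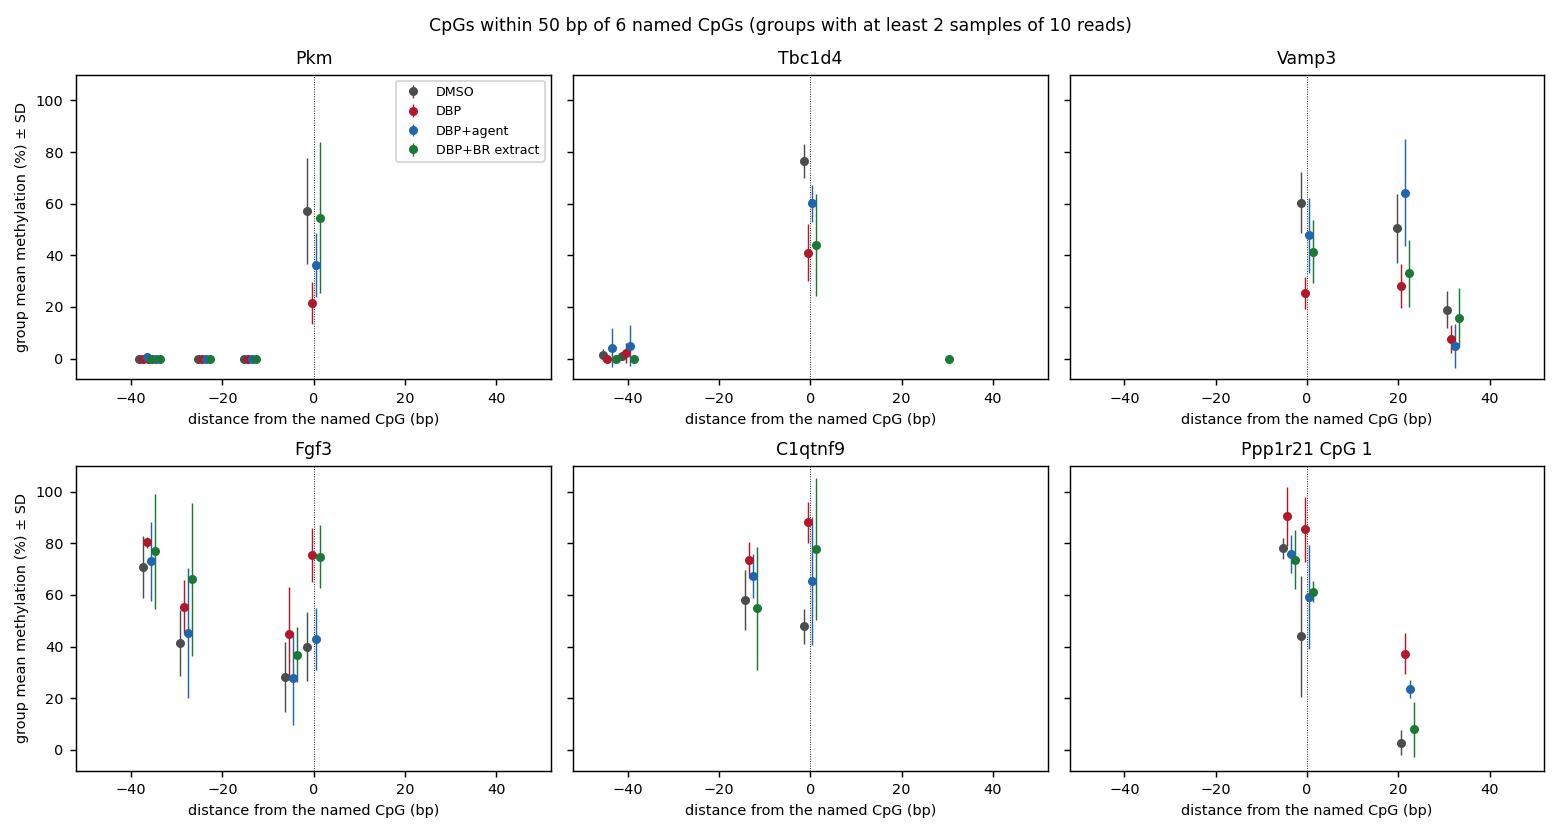
Group mean methylation (percent, with SD over samples) of CpGs within 50 bp of 6 of the sites, plotted by distance from the site (dotted line), for groups with at least 2 samples of 10 reads. Neighbours of Pkm and Tbc1d4 lie near 0% in all groups, and those of Vamp3, Fgf3, C1qtnf9 and Ppp1r21 are intermediate, for example 64.2% in DBP+agent and 28% in DBP 21 bp from the Vamp3 site.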

How the data were processed

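Methylation was measured by ERRBS in 12 samples of mouse oral tissue. Per the labels and the study's methods, 50 ng DNA was cut with MspI, fragments of 70 to 320 bp were amplified by 18 PCR cycles and read by 50 bp, with 6 libraries per lane (which lane is not given in the labels). The submitters' processing notes name Trim Galore 0.3.3, Bismark 0.10.1 and mm9. The authors deposited counts of methylated and unmethylated reads for each CpG cytosine on each strand, without normalization or a depth filter, and the percent methylated, which entered no step here. PCR duplicates cannot be identified from such counts.

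The 10 sites, the lists and the thresholds were chosen with earlier results of these data known, and all 10 sites are named. A cytosine entered a comparison with at least 10 reads and at most the 99.9th percentile of its sample's depth. Read numbers were then multiplied to bring every sample to the highest median, both strands of a CpG were summed, and only CpGs left in every sample compared were tested. The test was a likelihood ratio test in a logistic regression without overdispersion, with Benjamini-Hochberg q-values over all CpGs, following the study's settings. methylKit itself was not run. Single-site levels used unscaled reads of at least 10, and group differences used two-sided exact permutation tests, where 3 against 3 samples cannot go below 0.1. A count of 0 was read with a floor of 3 reads. Software was Python 3.11.15 (SciPy 1.17.1, statsmodels 0.14.6, NumPy 2.4.6, pandas 2.3.3) and edgeR 4.0.16 in R 4.3.3. The tests of read counts were run on simulated data first. Those data had no spread between samples of a group, so the runs do not show how the tests behave with such spread. Of the neighbouring CpGs, those called, the nearest with at least 10 reads in most samples and some further ones are given. Alternatives changed the read minimum, scaling, strands, required samples, model, thresholds and samples included. A scaling down to the lowest median and, in the fit with strands apart, a count of calls on either strand were added after the data were seen.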

Additional observations from a re-analysis of the deposited data

Results flagged for a closer look

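Fgf3 was set aside because the 2 agent groups differed there by a test of the difference itself. DBP+BR extract was higher than DBP+agent by 26.7 points pooled (logistic regression, q = 8.2e-09, and q = 3e-05 without scaling), with all 3 DBP+BR extract samples (64.4% to 88.2%) above all 3 DBP+agent samples (29.3% to 51%). In the same fit 1.6% of all CpGs and 4.09% of those with a mean of 10% to 90% were called, and the groups did not overlap at 5.45% and 10.1%. The level of 88.2% came from 17 reads in DBP+BR extract sample 1. The call ended without DBP+BR extract sample 3 (24.9 points) or DBP+agent sample 3 (20.9). The exact permutation test of the sample levels gave p = 0.1, the smallest that 3 against 3 samples allow, and edgeR gave an unadjusted p of 0.061 and q = 0.778. The CpG 5 bp away differed by 10.3 points and was not called.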

How the results depend on the processing

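Of 264 differences at single sites recomputed without 1 sample, 42 kept their direction and their call, 166 kept their direction and stayed uncalled, 12 lost the call, 24 gained it, 20 changed sign while uncalled and 0 changed sign with a call. All 44 differences of unscaled sample means lay within 1 SE of the pooled value, with no test. Some of these SEs were wide, and the sign could differ at uncalled sites. At C1qtnf9 in DBP+BR extract against DBP the pooled value was 0.905 points and the difference of means -10.1 ± 16.6 (SE). edgeR called 0 in all 5 comparisons, in place of 2, 3, 1, 2 and 1 (DBP+agent and DBP+BR extract against DMSO, the same against DBP, and against each other). With at least 20 reads, DBP+agent had 0 calls against DMSO (2 sites tested) and 0 against DBP, and DBP+BR extract had 1 against DBP and 0 against DBP+agent. With 5 reads DBP+agent had 2 against DBP. A limit of 10 points moved the counts most, to 6 for DBP+agent against DMSO, 6 against DBP, 5 for DBP+BR extract against DBP and 5 against DBP+agent. For DBP+agent against DMSO, 0 were called on the forward strand (7 sites tested) and among CpGs in all 12 samples (8 tested), fits that did not hold Pkm and Ppp1r13l, the called sites, and 0 with coverage scaled down (10 tested), and scaling down gave 2 between the agent groups. With strands apart and either strand counted, DBP+agent against DMSO had 2 calls (10 tested). Leaving out 1 sample gave 1 to 3, 1 to 4, 1 to 3, 2 to 4 and 0 to 4 calls, with 0 between the agent groups without DBP+BR extract replicate 3 or DBP+agent replicate 3. Without DBP+BR extract replicate 1, which brings Pkm and Ppp1r13l into the fit, 4 sites were called against DBP and 4 against DBP+agent. Readings nearer DBP were 8 of 15 in DBP+agent and 6 of 14 in DBP+BR extract with 20 reads, against 14 of 30 and 11 of 28. Leaving out 1 replicate gave 9 of 20 to 16 of 30 and 7 of 18 to 14 of 28, where a replicate of the group itself removes its readings. Replicate numbers did not pair the samples (correlations of deviations -0.0188 to 0.0182), and a replicate block gave 2, 3, 1, 2 and 1 calls, as without it. Fewer sites were tested at 20 reads, on 1 strand and in all 12 samples, and the cause of the other changes was not tested. Depth of 10 to 22 reads in many DMSO and DBP samples limits the precision of each level.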
